A study of Drosophila melanogaster with 3 samples.

Results

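Described here are 1196 of the 30000 peaks called on the pooled replicates of a chromatin immunoprecipitation (ChIP-seq) experiment on the forkhead factor fd64A in fly embryos. They are weak peaks away from promoters that the deposited list of reproducible peaks leaves out but whose summit every replicate placed within 50 bp. The members were selected on the peak lists themselves. A pooled peak was kept when it overlapped no peak of the list thresholded on the irreproducible discovery rate (IDR), when its summit lay within 50 bp of a summit in each of the 3 replicate lists, and when that summit lay more than 500 bp from every annotated transcription start site (TSS). Of the 30000 pooled peaks, 26478 overlapped no IDR peak, 1735 of these were matched in all 3 replicates, and 539 of the matched peaks lay at promoters, which left 1196. They were 6.10% of the 19600 non-promoter peaks outside the IDR list. The other 18404 are called unrepeated peaks below, and the 1689 non-promoter peaks of the IDR list serve as a second comparison. Overlap with the IDR list is not the same as membership, since 603 pooled peaks overlapped an IDR peak without being on that list.

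The embryos were Drosophila melanogaster of both sexes aged 8 to 14 hours, from 1 fly strain whose fd64A protein ends in green fluorescent protein (GFP, a C-terminal fusion), in 3 biological replicates. There was 1 group and no second condition. fd64A is annotated as FoxL1. The embryos were used whole, so a peak cannot be assigned to a cell type, and the labels do not say how the tagged copy relates to the native gene. The lists carry no read numbers, so the depth is unknown, and peak signals are the authors' own values, which have no stated scale.

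Forkhead factors bind DNA through a winged-helix domain, most tightly to sites built on the core AAACA or AAATA with a purine and a T in front of it. Many act at enhancers within introns and between genes as well as at promoters. IDR compares the ranks of peaks between replicates to set which peaks are kept, and the relaxed lists given to it hold background regions on purpose. A summit that recurs within 50 bp in every replicate is a different measure from rank, and it defines the peaks described here. Such matching was more frequent among peaks of stronger rank, as given below.

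The sequences below are from peaks of high pooled signal that held GTAAACA, the strongest form of the forkhead site, within 50 bp of the summit. Each runs 5′ to 3′ on the plus strand of release 6 of the genome (dm6), spans 101 bp centred on the summit, and has the forkhead words in capitals: GTAAACA or, on the other strand, TGTTTAC in each, and in Calx another form, GTAAATA, as well.
CG4374: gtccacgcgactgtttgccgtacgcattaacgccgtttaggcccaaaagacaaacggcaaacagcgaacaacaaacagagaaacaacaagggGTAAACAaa
Eip75B: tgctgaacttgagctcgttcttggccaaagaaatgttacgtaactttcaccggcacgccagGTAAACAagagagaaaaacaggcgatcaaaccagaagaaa
CG9743: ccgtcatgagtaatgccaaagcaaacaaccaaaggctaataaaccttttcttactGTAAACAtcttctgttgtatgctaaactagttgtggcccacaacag
Pvf1: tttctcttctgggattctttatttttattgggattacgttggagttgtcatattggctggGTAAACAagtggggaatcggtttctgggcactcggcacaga
Pgant2: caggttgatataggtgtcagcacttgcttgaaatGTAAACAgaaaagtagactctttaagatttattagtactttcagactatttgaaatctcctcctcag
Ttc30: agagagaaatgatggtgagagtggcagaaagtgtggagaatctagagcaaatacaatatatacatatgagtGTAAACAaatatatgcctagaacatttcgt
Calx: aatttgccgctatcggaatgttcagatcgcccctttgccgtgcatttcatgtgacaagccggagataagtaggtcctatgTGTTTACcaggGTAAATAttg

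The first of these, at chr3R:23445370-23445470 in an intron of CG4374, is also the strongest peak of the whole set. Its forkhead word lies 45 bp from the summit. The others lie in introns of Eip75B (chr3L:17993407-17993507), an ecdysone-induced nuclear receptor, of CG9743 (chr3R:30198958-30199058), of Pvf1 (chrX:18839402-18839502), a ligand of the PDGF and VEGF family, and of Calx (chr3R:21001244-21001344), a sodium-calcium exchanger. The remaining pair lies between genes, with Pgant2 (chr2L:3435208-3435308) and Ttc30 (chr2L:13101615-13101715) as the nearest genes. Counted along the plus strand, the centre of GTAAACA lay at these offsets from the summit: 14 bp for Eip75B, 8 bp for CG9743, 13 bp for Pvf1, -13 bp for Pgant2, 24 bp for Ttc30 and 33 bp for Calx.

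Some peaks held several words side by side. The members shown next are 3 of the 14 with 3 or more forkhead words in the window, with every form of RTAAAYA (R is A or G, Y is C or T) in capitals on either strand.
cv-c: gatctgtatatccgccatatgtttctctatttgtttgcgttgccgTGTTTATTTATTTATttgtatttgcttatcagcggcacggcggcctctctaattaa
Rtel1: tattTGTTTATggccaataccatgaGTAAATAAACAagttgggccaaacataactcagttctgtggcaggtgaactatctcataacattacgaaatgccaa
CG9171: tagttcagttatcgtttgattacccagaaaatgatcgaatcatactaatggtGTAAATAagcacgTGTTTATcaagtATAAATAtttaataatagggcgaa

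The windows lie at chr3R:14472714-14472814 in an intron of cv-c (crossveinless-c), at chrX:5749567-5749667 in an intron of Rtel1 (a DNA helicase) and at chr2L:5798120-5798220 in an intron of CG9171. In the cv-c window the 3 words overlap within a run of repeated TTTA, and in the Rtel1 window 2 of the 3 words overlap, so neighbouring words are not separate sites.

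The repeatable peaks began where the IDR list ends. The unrepeated peaks did so too, from pooled rank 2921, next to the 2919 peaks of that list. Both groups therefore began just below that list by pooled rank. The pooled ranks of the repeatable peaks by signal had a lowest value of 2926, a median of 6068 and a highest value of 24744. Their pooled signals had a lowest value of 61.8, a median of 126 and a highest value of 189.9. None of the 1196 had a q-value under 0.05 in the pooled list. The same held for all 18404 unrepeated peaks, so it is not a trait of the members. The highest pooled −log10 q was 1.27 in both groups. In the separate replicates, where all 30000 peaks included 4964, 3017 and 1598 with q under 0.05, the members with such a q numbered 247, 83 and 5 in replicates 1, 2 and 3. Their median ranks in the replicates were 9238.5, 9562.5 and 9275.5. These medians describe the set, while single peaks could rank far apart between replicates, as given below. Of the 1196, 1002 were outside the leading 2919 peaks of every replicate, 181 were inside them in 1 replicate, 13 in 2 and 0 in all 3.

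Positions repeated more closely in replicates 1 and 3 than in replicate 2. The distance from the pooled summit had a median of 11 bp in replicate 1, 20 bp in replicate 2 and 9 bp in replicate 3, out of the 50 bp that the selection allows. The replicates entered the pooled list with their own reads, so these distances are not from independent data. The same matching was met by 1775 of the 2919 IDR peaks (60.8%). Among non-promoter peaks outside the IDR list it was met by 38.9% of those of pooled rank 2920 to 5000, by 22.6% of ranks 5001 to 7500, by 13.5% of ranks 7501 to 10000, by 4.97% of ranks 10001 to 15000 and by 0.204% of the rest. The selection for position therefore drew mostly on the stronger peaks. At its edges, 321 members had a largest replicate distance of 41 to 50 bp, with a median pooled signal of 123.4, and 291 peaks just outside it had one of 51 to 60 bp, with a median of 122.0. Near the TSS limit, 49 members lay 501 to 600 bp away and 34 matched peaks just outside lay 401 to 500 bp away, with median pooled signals of 123.4 and 124.4.

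The 20 strongest members spanned pooled ranks 2926 to 3001. The genes that held them or lay nearest included EcR, the ecdysone receptor, puc (puckered, a phosphatase that restrains JNK signalling), Lim1, a LIM-homeodomain factor, kirre, the adhesion protein of muscle founder cells, ck (crinkled, a myosin VIIA), osp (outspread), tara (taranis), and Clic, a chloride intracellular channel protein. Others were CG4374, CG14020, CG14053, Tango5, prage, CG5966, CG5550, CG8149, CG7536, CG31797 and CG42788. Of these 20 summits, 16 lay inside a protein-coding gene, 12 of them in introns, and 3 had a forkhead word within 50 bp, in CG4374, prage and EcR. Over all 1196 members, 61.9% were intronic and 22.9% had a forkhead word. By a wider measure, from 2000 bp upstream of a gene to its end, 77.6% of all members lay in a gene.

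Their ranks in the replicates spread widely. The ranks ran from 1465 to 9243 in replicate 1 with a median of 4032, from 1800 to 14369 in replicate 2 with a median of 3719, and from 1465 to 14057 in replicate 3 with a median of 3465.5. The peak of ck (chr2L:15056728-15057131) had ranks 1465, 6827 and 14057 in replicates 1, 2 and 3, so replicate 1 alone placed it high. That of puc (chr3R:8110116-8110519) had ranks 3939, 14369 and 1478, and its summits lay 45, 45 and 42 bp from the pooled one. By contrast Lim1 (chrX:8777115-8777518) had ranks 3172, 4380 and 3000 and Clic (chrX:13820330-13820733) had 3480, 4186 and 2825. Of the 20, 17 were inside the leading 2919 of at least 1 replicate and 0 inside those of all 3.

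**Figure D1:**
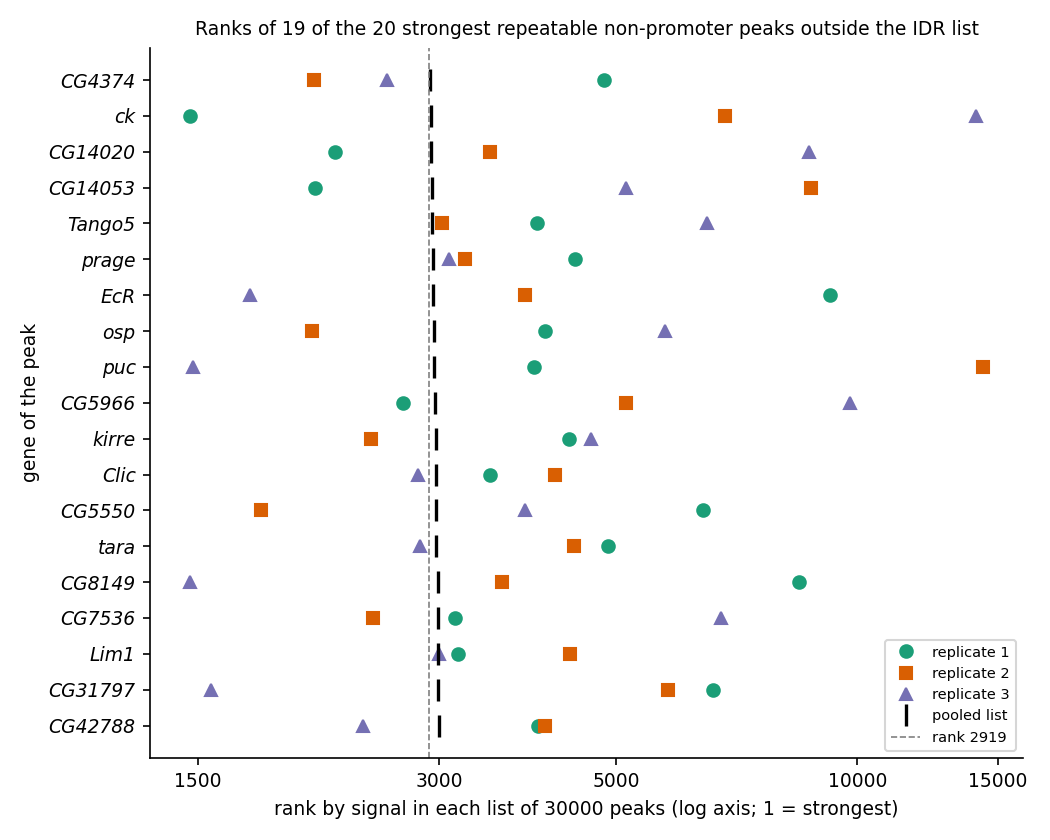
Rank by signal, on a log axis, of 19 of the 20 strongest repeatable non-promoter peaks in replicates 1, 2 and 3 (symbols) and in the pooled list (black ticks), with the gene of each peak down the page and rank 2919 as a dashed line. The pooled ranks lie between 2926 and 3001, while replicate ranks run from 1465 to 14369.

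Forkhead words were more frequent at the repeatable summits than in the sequence beside them. RTAAAYA, where R stands for A or G and Y for C or T, was searched on both strands within 50 bp of each summit. It was found at 274 of 1196 repeatable summits, or 22.9% (95% Wilson interval 20.6 to 25.4), against 16.0% of their own flanks, windows of the same length centred 500 bp away on either side. Their ratio was 1.43 (95% interval 1.25 to 1.64, two-sided Fisher's exact test p = 7.22e-07). Over all 19600 non-promoter peaks outside the IDR list the share was 13.5%. GTAAACA alone was found at 77 summits (6.44%) against 2.38% of flanks, a ratio of 2.70 (1.93 to 3.78, exact p = 6.07e-09). At the summits that the replicates gave for the same peaks, the share of RTAAAYA was 22.0% ± 0.418 (SD over 3 replicates) against 16.2% ± 0.403 of flanks, and the ratio was 1.36 ± 0.0136. By the selection these summits lay within 50 bp of the pooled ones. The windows therefore share much sequence, and the SD does not measure agreement between independent replicates. When replicate 2 was not required to match, the set grew to 3137 peaks and the ratio was 1.02 (Fisher's exact p = 0.635), so the excess of RTAAAYA over flanks was not detectable in that wider set. GTAAACA kept its excess there, with a ratio of 1.63 (adjusted p = 0.000292 by Fisher's exact test over the 33 motifs).

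The repeatable peaks lay between the other lists. The share of RTAAAYA was 22.9% at repeatable peaks and 12.9% at unrepeated peaks, a ratio of 1.78 (1.59 to 1.99, two-sided Fisher's exact test p = 6.19e-20). Unrepeated summits had fewer such words than their own flanks, at 12.9% against 14.8%. Against the IDR list the repeatable peaks were lower, at 22.9% and 33.1%, a ratio of 0.692 (0.611 to 0.784, exact p = 2.33e-09). The repeatable peaks began below that list by pooled rank, so list and rank cannot be told apart in this comparison. At the boundary the 100 strongest repeatable peaks had 29% and the 100 weakest non-promoter IDR peaks 24%, which was not tested. For GTAAACA the shares were 6.44% at repeatable peaks, 2.74% at unrepeated peaks and 9.0% at non-promoter IDR peaks. Their flanks had 2.38%, 1.98% and 2.04% in that order, so this word was more frequent at unrepeated summits than in their flanks.

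Signal moved with these shares. Repeatable peaks had a median pooled signal of 126, against 71.8 for unrepeated peaks, and the share of summits with a forkhead word was lower at later pooled ranks in both. At ranks 2920 to 5000 it was 32.1% of 443 repeatable peaks against 25.3% of 695 unrepeated peaks. At ranks 5001 to 7500 it was 23.6% against 21.3%, and at ranks 7501 to 10000 it was 16.7% against 15.4%. At ranks 10001 to 15000 it was 9.04% of 177 repeatable peaks against 12.6% of unrepeated peaks, and in the 24 repeatable peaks beyond rank 15000 it was 4.17% against 11.1%. Compared within these 5 ranges together, the Mantel-Haenszel ratio was 1.11 (exact conditional test p = 0.123), so at equal rank the difference between repeatable and unrepeated peaks was no longer past the threshold. Within the repeatable peaks the 598 with the higher signal had a share of 29.9% against 16.3% of flanks, and the 598 with the lower signal had 15.9% against 15.7%. The excess over flanks was therefore found in the stronger peaks of the set, a split made after the values were seen.

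**Figure D2:**
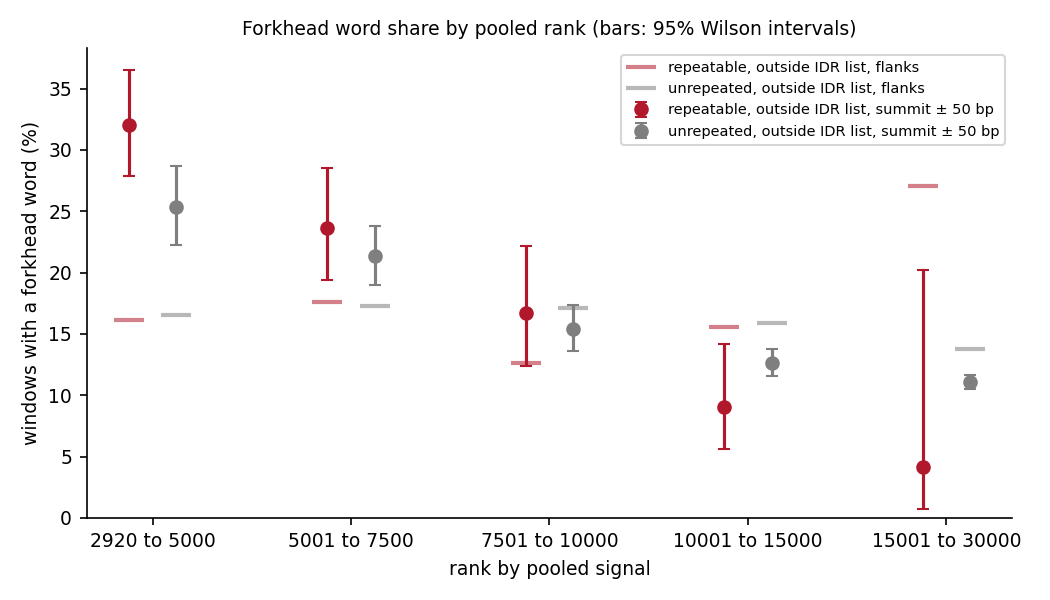
Percentage of summit windows (50 bp to each side) with a forkhead word by range of pooled rank, for repeatable peaks (red, left of each pair) and unrepeated peaks (grey, right), with 95% Wilson intervals as bars and the share in their flanks as short lines. At ranks 2920 to 5000 the shares are 32.1% and 25.3%, and both are lower at each later range.

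By the number of replicates that matched, the share was 22.9% for 3 replicates (1196 peaks), 15.0% for 2 (5056 peaks), 12.6% for 1 (9539 peaks) and 10.7% for none (3809 peaks). The shares in the flanks were 16.0%, 16.0%, 14.6% and 13.6% in the same order, and the median pooled signals were 126, 88.6, 69.9 and 63.4.

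Words crowded toward the summit. Repeatable peaks had 6.52 forkhead words per 100 summits per 20 bp within 20 bp of the summit, 5.98 at 20 to 40 bp, 4.93 at 40 to 60 bp and 3.78 at 60 to 100 bp, against 3.98 at 300 to 500 bp. Unrepeated peaks had 3.16 within 20 bp and 3.52 at 300 to 500 bp. Non-promoter IDR peaks had 9.95 within 20 bp and 3.93 at 300 to 500 bp. Most repeatable peaks with a word had 1 of them: 211 had 1 word in the window, 49 had 2 and 14 had 3 or more, while 922 had none.

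**Figure D3:**
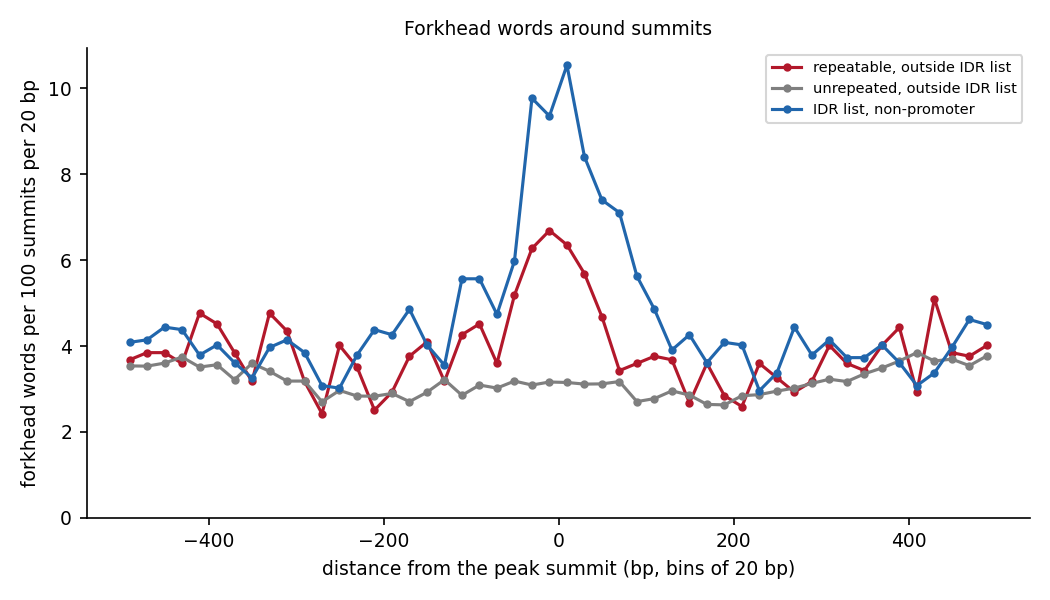
Forkhead words (RTAAAYA, both strands) per 100 summits in bins of 20 bp against the distance from the summit in bp, for repeatable peaks (red), unrepeated peaks (grey) and non-promoter IDR peaks (blue). Within 20 bp of the summit the densities average 6.52, 3.16 and 9.95.

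Base composition also differed along these windows. The mean GC content was 43.6% ± 8.99 (SD over 1196 summits) at repeatable summits and 39.9% in their flanks, and it was 46.4% at unrepeated summits against 41.4% in theirs. Non-promoter IDR summits went the other way, with 38.4% against 40.4% in their flanks. Compared within 4 groups of GC content, the ratio of repeatable summits to flanks was 1.81 and that of repeatable to unrepeated peaks was 1.46, both past the threshold.

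Separate words were compared next. All words of 7 bases, with reverse complements merged, were compared between repeatable summits and flanks by Fisher's exact test with Benjamini-Hochberg adjustment. The test called 36 words (0.439%) as more frequent at the summits, and it called 36 others (0.439%) as less frequent. The most significant was GCAAACA, at 8.11% of summits against 2.88% of flanks (ratio 2.81, exact adjusted p = 1.34e-07). ACAAACA followed among the more frequent words, at 8.70% against 3.55% (ratio 2.45, exact adjusted p = 9.07e-07), and then GTAAACA (ratio 2.70, exact adjusted p = 8.82e-06). Each of these holds AAACA. Of all 96 words with AAACA or AAATA, 9 were more frequent at the summits by this test and 5 were less frequent. Among the remaining forms of the forkhead word, GTAAATA had a ratio of 1.89 (exact adjusted p = 0.0202). The forms that open with A did not pass. ATAAACA had a ratio of 1.22 (exact adjusted p = 0.792). The ratio was 1.11 for the form ATAAATA (exact adjusted p = 0.935). The window of CG4374 printed above holds GCAAACA and ACAAACA in small letters in addition to its GTAAACA.

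The first 2 of these words, written together as RCAAACA, were set side by side in the lists after the word search. They stood at 15.1% of repeatable summits, 8.75% of unrepeated summits and 17.8% of non-promoter IDR summits, against 6.19%, 6.28% and 7.13% of the flanks of these lists. GCAAACA had a ratio to flanks of 2.81 at repeatable peaks, 1.48 at unrepeated peaks and 3.04 at IDR peaks, and GTAAACA had 2.70, 1.39 and 4.41. RYAAAYA, which covers RTAAAYA and RCAAACA, marked 39.0% of repeatable summits against 25.9% of their flanks. No test is given for these values, since the word was chosen on them.

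Runs of CA, and words without a forkhead core, were also more frequent. ACACACA was found at 9.20% of repeatable summits against 4.43% of flanks (ratio 2.08, exact adjusted p = 2.79e-05) and CAGTGCA at 4.60% against 1.67% (ratio 2.75, exact adjusted p = 0.000355). The less frequent words were made largely of A and T. TATAAAA was found at 1.51% of summits against 5.73% of flanks (ratio 0.263, exact adjusted p = 9.07e-07) and AAAAAAA at 5.18% against 10.8% (ratio 0.479, exact adjusted p = 1.02e-05). Base composition moved in the same direction, with the higher GC content at summits given above. Its part in the low shares of these words was not tested. Unrepeated summits went the same way for each of these words. Their ratios to flanks were 1.46 for ACACACA, 1.53 for CAGTGCA, 0.498 for TATAAAA and 0.511 for AAAAAAA. These directions were therefore not particular to the repeatable peaks, and the differences in size between the lists were not tested.

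Among 33 motifs of known factors and simple repeats, 7 (21.2%) were more frequent at repeatable summits than in flanks and 4 (12.1%) less frequent by Fisher's exact test after Benjamini-Hochberg adjustment. Of the 7, 3 were overlapping forkhead patterns, namely RTAAAYA and its form GTAAACA as above and a wider one, AYAAAYA, with a ratio of 1.37. The others were the CA repeat CACACACA (5.69% against 2.63%, ratio 2.16, exact adjusted p = 9.01e-05), the E-box CAGCTG, a site of basic helix-loop-helix factors (6.52% against 4.22%, ratio 1.54, adjusted p = 0.0159), the Sox site ACAAAG or ACAATG (16.6% against 13.1%, ratio 1.27, adjusted p = 0.0188), and the repeat CAGCAGCA (2.68% against 1.42%, ratio 1.88, adjusted p = 0.0386). At unrepeated summits the shares were 3.55% for CACACACA, 6.14% for CAGCTG, 13.3% for the Sox site and 3.12% for CAGCAGCA. At non-promoter IDR peaks the ratios to flanks were 1.35, 0.855, 1.34 and 0.794 in the same order. The ratios at the replicates' own summits were 1.94, 1.96 and 2.31 for the CA repeat and 1.28, 1.35 and 1.25 for the Sox site in replicates 1, 2 and 3. Those windows share sequence by the selection. Of the 68 members with CACACACA, 9 also had a forkhead word and 59 did not, beside 274 of all 1196 members (22.9%) with such a word. This overlap was not tested.

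The 4 less frequent motifs were all rich in A and T or allowed to be. They were a run of A (3.68% against 6.98%, ratio 0.527, exact adjusted p = 0.000298), the Mef2 site of muscle genes (1.92% against 4.01%, ratio 0.479, adjusted p = 0.00400), the STAT site TTCNNNGAA (1.92% against 3.55%, ratio 0.541, adjusted p = 0.0250), and the homeodomain core TAATTA (5.27% against 7.44%, ratio 0.708, adjusted p = 0.0479). The Mef2 site stood at 1.92% of repeatable summits and 1.87% of unrepeated summits, and at 3.85% of non-promoter IDR summits against 3.43% of their flanks. The GATA site had a ratio of 1.07 at repeatable peaks and did not pass the test. The calls for the Sox site, Mef2, STAT, the homeodomain core and the CAG repeat ended with flanks 1000 bp away. That for CAGCTG ended for peaks over 1000 bp from a TSS and, like that for the CA repeat, with windows of 25 bp to each side.

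**Figure D4:**
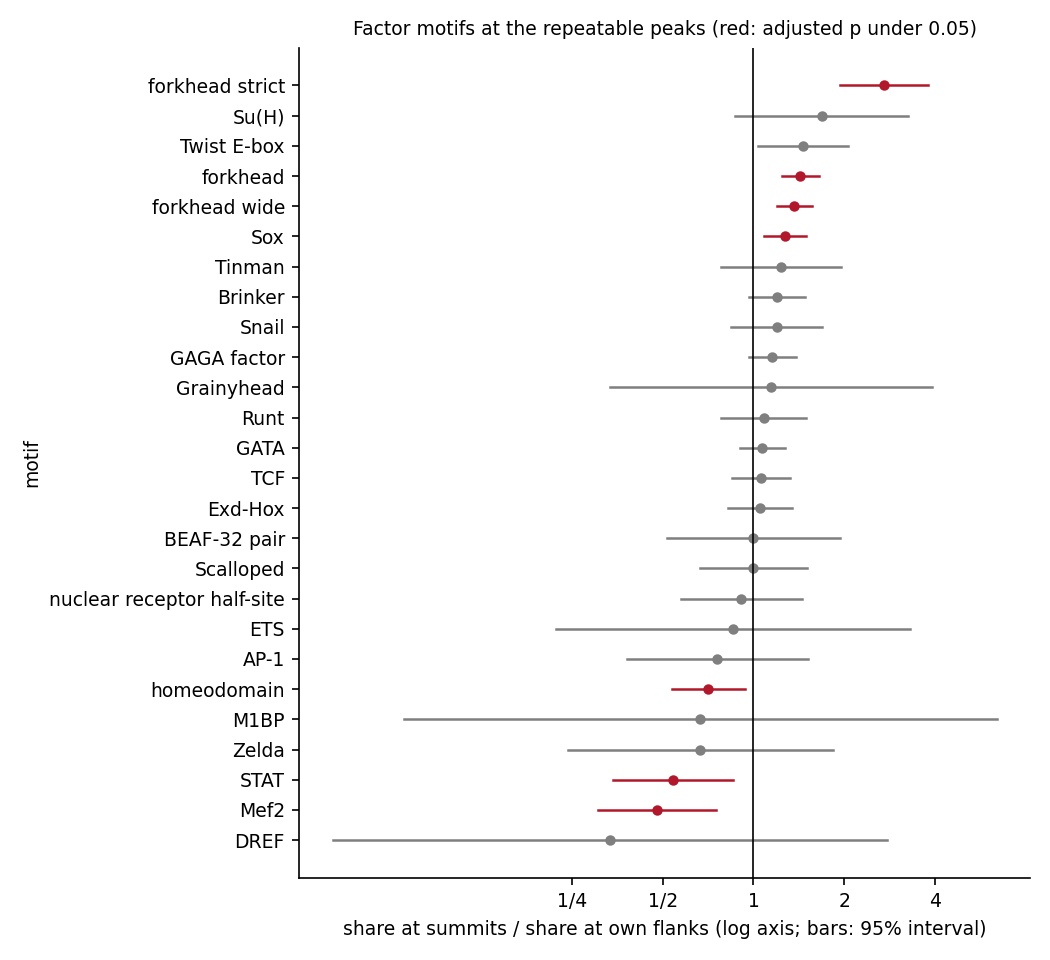
Ratio of the share of repeatable summits with each factor's motif to the share of their own flanks, on a log axis with 95% intervals, for the motifs of named factors. Red marks an adjusted p under 0.05: the forkhead patterns and Sox lie above 1, and homeodomain (0.708), STAT (0.541) and Mef2 (0.479) lie below it.

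Most repeatable peaks lay in introns. At the summit, 740 of 1196 (61.9%) were intronic against 50.6% of unrepeated peaks (ratio 1.22, adjusted p = 1.32e-13 by Fisher's exact test with Benjamini-Hochberg adjustment), and the share in non-promoter IDR peaks was 72.4%. Coding exons held 6.27% of repeatable peaks against 18.0% of unrepeated peaks (ratio 0.349, exact adjusted p = 5.39e-30) and 0.533% of IDR peaks. Non-coding exons held 2.34% against 1.30% (exact adjusted p = 0.0125). That call ended when summits had to match within 25 bp or within 100 bp, and for peaks over 1000 bp from a TSS. It also ended when the 598 stronger repeatable peaks were compared with the 9202 stronger unrepeated peaks. The shares between genes (25.5% against 25.1%), in 5′ untranslated regions (1.67% against 1.64%) and in 3′ untranslated regions (2.34% against 3.31%) did not pass the test.

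These differences also moved with rank. At ranks 2920 to 5000, introns held 66.1% of repeatable peaks against 65.3% of unrepeated peaks, and coding exons held 2.48% against 1.44%. Compared within the 5 ranges of pooled rank, the ratio was 1.01 for introns (exact conditional test p = 0.811) and 0.942 for coding exons (exact p = 0.652), so neither difference passed at equal rank. Forkhead words followed the annotation within the set: 27.0% of the 740 intronic summits had one against 16.6% of their flanks, while 18.0% of the 305 intergenic summits had one against 15.7%, and 5 of the 75 summits in coding exons (6.67%) against 14.0%. The mean GC content was 42.3% at the intronic summits and 54.3% at those in coding exons.

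**Figure D5:**
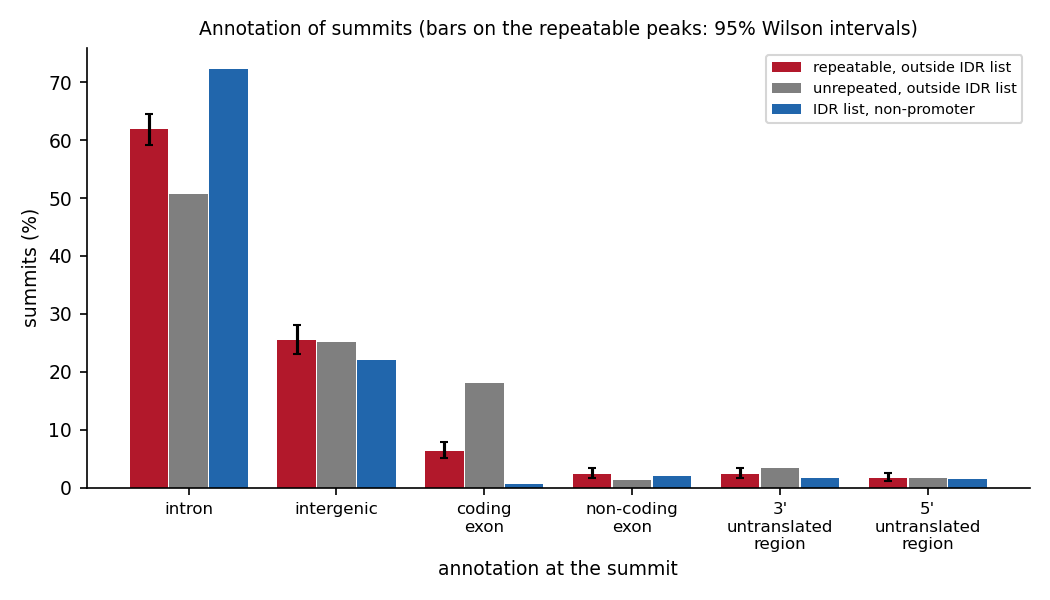
Percentage of summits in each class of annotation for repeatable peaks (red, with 95% Wilson intervals), unrepeated peaks (grey) and non-promoter IDR peaks (blue). Introns hold 61.9%, 50.6% and 72.4%, and coding exons hold 6.27%, 18.0% and 0.533%.

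Repeatable peaks lay nearer to IDR peaks than unrepeated peaks did. A summit of the IDR list was found within 2000 bp for 246 repeatable peaks (20.6%) against 13.0% of unrepeated peaks (ratio 1.58, two-sided Fisher's exact test p = 2.90e-12), and within 1000 bp for 8.53% against 4.24%. Compared within the 5 ranges of pooled rank the ratio was 1.02 (exact conditional test p = 0.738), so this difference too was not past the threshold at equal rank. Of the 246, 24.8% had a forkhead word against 16.5% of their flanks, and of the 950 farther away, 22.4% against 15.9%. The 6 chromosome arms were used in proportions that did not differ by the test: 0 of 6 passed after adjustment and 0 at an unadjusted p under 0.05. Chromosome 4 held 0 of the 1196, which allows a share of up to 0.251%, against 11 unrepeated peaks.

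Of 13945 protein-coding genes, 819 (5.87%) held a repeatable summit between 2000 bp upstream and their end, and 166 held 2 or more. Genes with such a summit were long, with a median span of 16.8 kb against 4.17 kb for all genes. Of the 819, 326 also held a non-promoter IDR summit, which is 39.8% of them and 32.5% of the 1002 genes with such an IDR summit. The most were in osp, with 7, then cv-c and kirre with 6 each. Next, with 5 each, came tara, pnt, shn, mtd, bun, jing and luna. The genes mgl and SKIP also held 5, so the list of 10 ends within a tie. Per 100 kb of span, tara had 13.6, pnt 8.63, shn 8.29 and osp 7.60, against 1.51 in kirre, whose span is 396.1 kb, and 0.869 over the spans of all genes. In osp there was 1 non-promoter IDR summit beside the 7 repeatable ones, while shn had 10 beside 5.

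The tagged gene itself had a repeatable peak nearby. FoxL1 (FBgn0004895, chr3L:4018878-4021279) had 1 member at chr3L:4017306-4017709, with its summit 1370 bp upstream of the TSS, and 1 non-promoter IDR summit. That member had pooled rank 5565 and ranks 7028, 3469 and 7973 in replicates 1, 2 and 3, and no RTAAAYA within 50 bp. The only other of 16 forkhead family genes with a member was FoxK, with a summit in a coding exon, 567 bp from a TSS, of pooled rank 9824.

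Genes of signalling pathways, of regulator families and of tissue differentiation were described through 16 lists. Of their 261 distinct genes, 63 (24.1%) held a repeatable summit, against 5.87% of all protein-coding genes, and 46 of the 63 also held a non-promoter IDR summit. These genes had a median span of 15.3 kb against 4.17 kb for all genes, and the part of length in these counts was not tested. The counts of each list below stand against the same 5.87% of all genes. The median number of repeatable summits per gene was 0 in the lists together and 0 over all genes.

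The Dpp pathway, the fly's BMP pathway, had 5 of 14 genes with a member and 4.30 members per 100 kb. The strongest were near dpp, the ligand, in shn (schnurri, a zinc-finger effector) and in tkv, a receptor. The dpp peak (chr2L:2426459-2426862) lay between genes, 1220 bp from a TSS, with ranks 2927, 5166 and 7017 in replicates 1, 2 and 3. That of shn had ranks 2912, 4548 and 4384, closer together.

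The Hedgehog pathway had 5 of 12 genes and 3.98 per 100 kb. Its strongest members lay in introns of dally, a glypican that carries signalling ligands, Pka-C1, the catalytic subunit of protein kinase A, and ptc, the Hedgehog receptor. All 3 had a forkhead word, and those of Pka-C1 and ptc held GTAAACA, beside 22.9% and 6.44% of all members. Of the other genes of this list, the strongest member of dlp had a word and that of hh had none. The dally peak (chr3L:8856628-8857031) had ranks 5135, 3556 and 3013, and the Pka-C1 peak (chr2L:9691577-9691980) had 4329, 5696 and 11537.

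The EGF receptor pathway had 8 of 18 genes and 3.17 per 100 kb. Its strongest members were in an intron of pnt (pointed, an ETS activator), near aop (anterior open, an ETS repressor) and in an intron of Egfr, the receptor. The pnt peak (chr3R:23338210-23338613) held 2 forkhead words and had ranks 4579, 7932 and 2347. The aop peak (chr2L:2179373-2179776) had ranks 16136, 1792 and 4551, so replicate 1 placed it far lower than the others did.

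The Wnt pathway had 6 of 20 genes and 2.64 per 100 kb. Its strongest members were in fz2 and fz, receptors of the Frizzled family, and in nkd (naked cuticle), an inhibitor of the pathway. The fz2 peak (chr3L:19169040-19169443) had ranks 22127, 2549 and 2611, and that of fz (chr3L:14274739-14275142) had 2387, 4402 and 27982, so in each of them 1 replicate stood far from the others. The nkd peak (chr3L:19033181-19033584) had 4442, 6389 and 4469.

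The Notch pathway had 5 of 12 genes and 1.49 per 100 kb. The strongest were in introns of N, the receptor, kuz (kuzbanian, the protease that cleaves it) and mam (mastermind, its coactivator). The N peak (chrX:3136719-3137122) had ranks 5143, 4126 and 2586. Those of kuz and mam were lower, with pooled ranks 7577 and 7749.

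Nuclear receptors had 6 of 21 genes and 1.77 per 100 kb, led by EcR, Eip75B and Hr4. The EcR peak held 2 forkhead words and had ranks 9243, 3843 and 1743. The Eip75B peak (chr3L:17993255-17993658), whose GTAAACA is printed above, had ranks 2190, 2467 and 21978, and Hr4 (chrX:1976203-1976606) had 4999, 16822 and 4965. GATA factors and cofactors had 2 of 6 genes, ush (u-shaped, which binds GATA factors) and srp (serpent, a GATA factor of blood and fat body). The srp peak (chr3R:15991144-15991547) held GTAAACA but ranked 9718, 27613 and 28618.

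Somatic muscle genes had 4 of 19 and 1.44 per 100 kb. The strongest members were in introns of kirre, mbc (myoblast city) and rols (rolling pebbles), which act in the fusion of myoblasts. The mbc peak (chr3R:23783158-23783352) held a forkhead word and had ranks 4766, 1308 and 3041. The rols peak (chr3L:12045419-12045822) had 3134, 5574 and 4838, without a word. Salivary gland genes had 5 of 13 and 1.67 per 100 kb, led by rib (ribbon), CrebA, which drives secretory genes, and sano.

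Hox genes and cofactors had 4 of 10 genes and 0.810 per 100 kb, with members in Antp, Abd-B and Ubx ahead of hth. None of these 4 had a forkhead word at the strongest summit, beside 22.9% of all members with one. Homeobox genes outside the Hox set had 4 of 38 and 1.08 per 100 kb, led by mirr, otp and caup, and the caup peak (chr3L:12618023-12618426) held GTAAACA. Basic helix-loop-helix genes had 2 of 22, emc and twi. Neural differentiation genes had 3 of 17 (brat, fne and insc), axon guidance genes 2 of 15 (robo2 and Sema5c), and epidermal genes 1 of 14, shn again. Their densities were 0.782, 0.794, 0.509 and 1.41 per 100 kb for the basic helix-loop-helix, neural, guidance and epidermal lists, against 0.869 over all genes. The peak counted for insc lies in sktl by the containing gene.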

How the data were processed

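ChIP-seq peaks of 3 biological replicates of GFP-tagged fd64A were used on dm6 as deposited, in narrowPeak format per the deposited file descriptions. The authors called a relaxed list of 30000 peaks for each replicate and for the replicates pooled, against 1 shared input alignment, and the IDR list of 2919 peaks from these, per the deposited file descriptions. Which aligner, caller and IDR threshold were used is not stated there. The deposited signal of each peak has no stated scale and was compared only between peaks of 1 list. The deposited −log10 q-value served only to count peaks with q under 0.05, and the deposited offset gave the summit. Per the labels, chromatin was sheared to 200 to 800 bp. A description label calls the samples input controls, whereas the assay and antibody labels mark immunoprecipitations, and they were treated as immunoprecipitations.

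Sequence came from the NCBI assembly of release 6 and TSSs and gene models from Ensembl release 115 without transposable elements, on 6 arms. Where annotations overlapped, untranslated regions went before coding exons, these before other exons, and exons before introns. A gene held a summit from 2000 bp upstream to its end. Tests ran in SciPy 1.17.1 and tables in pandas 2.3.3 (Python 3.11.15, NumPy 2.4.6), and figures were drawn with matplotlib 3.10.9. Comparisons within ranges of rank used the Mantel-Haenszel ratio and an exact conditional test. Fisher's tests were two-sided, with Benjamini-Hochberg adjustment within each family at 0.05. They treat peaks as independent and measure the spread between peaks, not between embryos or fly lines, and Wilson intervals cover counting error only. The matching of summits, the word search and the comparison of shares were tested on simulated data.

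The members, the 33 motifs, the 16 gene lists and the tests were chosen with earlier results of these data known. Of the listed genes, 5 names matched no gene of the annotation and were not analysed here. Named are the genes of the 20 strongest members, the 10 genes with the most member summits, up to 3 genes of each list with the strongest member, and FoxL1, together with genes tied with these or sharing a peak and the genes of the printed sequences, which are some of the strong members with GTAAACA and 3 members with 3 words. Not every such member is shown, and 1 of the 20 genes is not reported here. Of several genes that contain a summit, or where none does, the one with the nearest TSS was taken. A few other genes of short lists were named after their values were seen.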

Additional observations from a re-analysis of the deposited data

How the results depend on the processing

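Requiring summits within 25 bp left 408 members, of which 4 motifs and 0 words passed (287 words more and 164 less frequent at an unadjusted p under 0.05 by Fisher's exact test), and 100 bp gave 2507 members and 254 words. Leaving out 1 replicate each, which admits weaker peaks, gave 2640 to 3137 members, a ratio to flanks of 1.02 to 1.27, 267 to 406 words, 3 to 5 annotation classes and 0 to 2 chromosome arms past the threshold. The ratio of 1.02, without replicate 2, was the value that lost its call. Windows of 25 bp to each side gave 4 motifs and 7 words, windows of 100 bp gave 218 words, and flanks 1000 bp away gave 6 motifs and 31 words. The most significant word among those more frequent was ACACACA with matching within 25 bp or windows of 100 bp, ACAAACA without replicate 2 or 3, CAGTGCA with flanks 1000 bp away, and GCAAACA in the other settings. Within 5 ranges of pooled rank, an alternative chosen after seeing the data, the ratios of repeatable to unrepeated peaks were 1.11 for forkhead words and 1.02 for nearness to IDR summits, and both lost their calls; within 4 groups of signal the first was 1.26 and kept it. Members with pooled q under 0.05 could not be analysed, since there were 0. Followed singly through the settings were 18 results that passed: 11 motifs, 3 annotation classes and only 4 of the 72 words. They were recomputed 175 times in all, and 132 of these values passed in the same direction while 43 lost the call. The other words that passed are not part of these counts. For motifs, classes and chromosome arms that had not passed, 252 of 273 values again did not pass and 21 did. Paired within peaks by the exact McNemar test, the forkhead ratio was 1.49 to the left flank and 1.38 to the right one. Between samples, no paired analysis was possible because there is 1 group. Unknown depth and 1 shared input limit what weak peaks can show.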

Other observations

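The forkhead share is given here by how closely the replicates matched. It was 22.8% in the 114 repeatable peaks whose largest replicate distance was 10 bp or less, 25.5% in the 294 at 11 to 25 bp and 22.0% in the 788 at 26 to 50 bp, against 16.8% in the 291 peaks just outside, at 51 to 60 bp. At the IDR boundary the 100 strongest repeatable peaks had a word at 29% of summits and the 100 weakest non-promoter IDR peaks at 24%. By distance from the nearest TSS, the share was 21.5% at 501 to 1000 bp, 27.2% at 1001 to 2000 bp, 21.4% at 2001 to 5000 bp, 22.9% at 5001 to 10000 bp and 20.7% beyond. None of these differences was tested.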
